A study of Chlamydomonas reinhardtii with 5 samples.

Results

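The 31 genes described here encode nuclear-encoded proteins of the photosynthetic electron transport chain of Chlamydomonas reinhardtii. They were chosen by name from 17742 counted genes and not by a cut on their values, though earlier results of these data were known. They comprise the 9 LHCA genes of the photosystem I (PSI) antenna, LHCB4 and LHCB5 of the photosystem II (PSII) antenna, 9 genes of PSI subunits (PSAD to PSAO), 4 genes of PSII subunits on the lumenal side (PSBO1, PSBP1, PSBQ1 and PSBR1), 3 genes of the chloroplast ATP synthase (ATPC, ATPD and ATPG) and 4 genes of electron carriers (PETC, PCY1, FDX1 and FNR1). The gene names were given with the list, since the reference annotation holds ORF names alone, and all 31 ORF names were found in it. Every member had more than 3 counts in every library and passed every filter used below.

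All libraries came from wild-type cells of strain CC-125, grown to mid-exponential phase in acetate-containing TAP medium under constant white light. The mock was not irradiated. XR6 and XR50 received X-rays of 6 Gy over 22.2 min and of 50 Gy over 8.1 min, and GR6 and GR50 received γ-rays of 6 and 50 Gy over 1 h each from a cobalt source. X-irradiated cells were concentrated into small tubes and γ-irradiated cells were not, so that radiation type cannot be told apart from handling and exposure time. After X-rays, dose cannot be told apart from exposure time and dose rate, since the higher dose was given over the shorter time. After γ-rays, it cannot be told apart from dose rate. The interval between irradiation and harvest for RNA is not given in the sources used here. Whether the mock was concentrated like the X-irradiated cells is not given either. Each condition is represented by 1 library, although the study prepared 3 biological replicates in different batches. Whether a library is 1 of these replicates or a pool, and whether the libraries share a batch, is not given. There is therefore no replicate error for any comparison of a pair of libraries.

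In the thylakoid membrane, light collected by the antenna proteins drives electrons from water through PSII, the cytochrome b6f complex, plastocyanin and PSI to ferredoxin, and the proton gradient formed on the way powers the ATP synthase. The large, pigment-binding cores of both photosystems are made in the chloroplast from its own genome, whereas the antenna proteins and most small or extrinsic subunits are made in the cytosol from nuclear transcripts and imported. The nuclear transcripts of these complexes are among the most abundant in a green alga growing in light. In C. reinhardtii, antenna and photosystem genes are regulated by light, by the circadian clock and the cell cycle, and by carbon source.

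Reads counted on genes ranged from 18364833 to 20330055 per library. XR6 stood apart from the others in its alignment. The share of reads that did not align was 32.2% in XR6 and between 37.7% and 41.8% in the other libraries, and reads that aligned at several places made up 4.39% in XR6 and between 2.95% and 3.73% elsewhere. The TMM factor, which corrects a library for its composition, was 1.08 in XR6 and between 0.939 and 1.01 in the others. The part of these differences in the results on XR6 was not tested. As a measure of scale, CrRPA70A, a DNA damage response gene named by the study, had a log2 change over the mock of 3.75 in XR6 and 5.85 in GR50, and CrLHL4, a light-inducible gene related to the antenna proteins, had values between -1.34 and -1.15 in the irradiated libraries.

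The 31 genes were among the strongest expressed, and the lowest of them, PSAL, had rank 189 by mean count. Their mean count over the 5 libraries ran from 20177 for PSAL to 126138 for PCY1, with a median of 46830. Together, they took 9.25% of the mock's reads on genes, 7.05% (XR6) and 8.09% (XR50) after X-rays, and 9.26% (GR6) and 8.51% (GR50) after γ-rays. The exact (Clopper-Pearson) 95% interval was 9.24% to 9.27% in the mock and 7.04% to 7.06% in XR6, and such intervals cover counting error only, because PCR reads are not independent molecules. XR6 was thus the lowest library and GR6 was nearly at the mock, although both received 6 Gy. Both γ-ray libraries lay above both X-ray libraries, whereas those of 6 and 50 Gy overlapped. A share of reads cannot tell fewer cells expressing a gene apart from less RNA per cell.

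**Figure D1:**
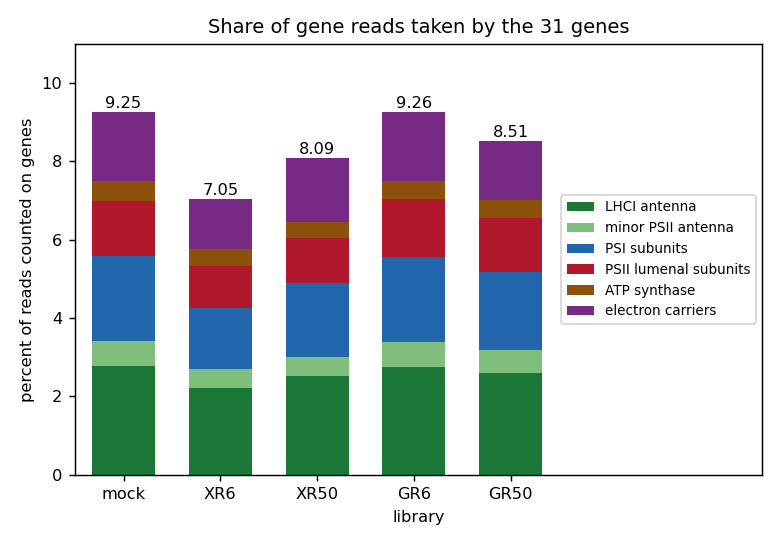
Percent of the reads counted on genes (y axis, from 0) that fell on the 31 genes in each of the 5 libraries (x axis), stacked by complex, with the total above each bar and 1 library per bar. The total was 9.25% in the mock and lowest in XR6 with 7.05%, and all 6 blocks were smaller in XR6 than in the mock.

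Each complex had a lower share of gene reads in XR6 than in the mock. The LHCA genes took 2.79% of the mock's gene reads, 2.23% (XR6) and 2.51% (XR50) after X-rays, and 2.76% (GR6) and 2.60% (GR50) after γ-rays. For the PSI subunits, the shares were 2.17%, 1.57%, 1.87%, 2.16% and 1.98% in the same order. The carriers had 1.76% in the mock, 1.29% (XR6) and 1.63% (XR50) after X-rays, and 1.76% (GR6) and 1.50% (GR50) after γ-rays. The ATP synthase genes had 0.496% in the mock, 0.419% (XR6) and 0.422% (XR50) after X-rays, and 0.454% (GR6) and 0.450% (GR50) after γ-rays, and here both X-ray libraries were nearly level and GR6 lay below the mock.

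Compared with the mock, 0 of the 31 genes changed by more than 2-fold, the threshold of the study, in any irradiated library. For comparison, 8.61% of all genes with counts were more than 2-fold above and 5.13% more than 2-fold below the mock in XR6. These shares were 6.67% and 5.0% in XR50, 8.05% and 5.81% in GR6 and 14.1% and 9.34% in GR50. Among the 2287 genes that averaged 1000 counts or more, the shares in XR6 were 3.41% and 0.962%. They were 2.54% and 0.875% in XR50, 6.17% and 2.75% in GR6 and 11.7% and 4.50% in GR50. In XR6, 0 of the 31 genes were higher and 30 were lower than in the mock by more than their counting error, against 25.9% and 25.0% of all genes and, for lower values, 52.2% of the genes with at least 1000 counts. Their median log2 change was -0.58, with members from -0.86 (PCY1) to 0.01 (LHCA2), whereas the median over all genes was 0.00. Over the genes with at least 1000 counts, that median was -0.12 (XR6), -0.03 (XR50), -0.03 (GR6) and -0.05 (GR50). The median over the members was -0.28 in XR50, with 29 genes lower and 1 higher beyond the counting error, against 20.3% and 19.5% of all genes. After γ-rays the median was -0.13 at 6 Gy, with 23 genes lower and 6 higher, against 22.7% and 23.8% of all genes. It was -0.20 at 50 Gy, with 24 genes lower and 6 higher, against 27.8% and 29.1%. Of the genes with at least 1000 counts, 42.1% were lower and 36.3% higher beyond the counting error in XR50. These shares were 46.0% and 40.8% in GR6 and 47.9% and 42.2% in GR50. The median of all genes in XR6 was 0.21 with library totals in place of TMM, and that in GR50 was -0.22 with upper-quartile factors. The distance between the median of the members and that of all genes does not depend on such factors, and it was -0.58 (XR6), -0.25 (XR50), -0.12 (GR6) and -0.19 (GR50). These 4 comparisons share the mock, and the counting error of a member was at most 0.03 on the log2 scale, so that nearly any difference between libraries exceeds it.

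The LHCA proteins form the antenna belt around PSI. LHCA8 (CHLRE_06g272650v5, chromosome 6, 2925547 to 2927896 in the v5.5 assembly) had a TMM-scaled level of 2737 CPM (counts scaled to a common library size) in the mock, 1810 (XR6) and 2319 (XR50) after X-rays, and 2701 (GR6) and 2550 (GR50) after γ-rays. XR6 was the lowest library and GR6 the closest to the mock. The change from XR6 to GR6 was 0.58 (95% counting interval 0.56 to 0.60), which was the largest step of an LHCA gene, and that from XR50 to GR50 was 0.14. At the other end, LHCA3 (CHLRE_11g467573v5, chromosome 11, 348422 to 351813) had 2129 CPM in the mock, 1782 (XR6) and 1922 (XR50) after X-rays, and 2143 (GR6) and 2310 (GR50) after γ-rays. No step among the irradiated libraries exceeded 0.27 for this gene, which overlaps the neighbouring ORF by 8 bp in the annotation. LHCA1, the most counted LHCA gene, had 6217 CPM in the mock and 3526 in XR6, and its other values lay between 4660 and 5105.

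LHCA2 (CHLRE_12g508750v5, chromosome 12, 2146536 to 2149354), whose protein pairs with LHCA9 apart from the main belt, is singled out here after its values were seen. Its level was 2041 CPM in the mock, 2055 (XR6) and 1999 (XR50) after X-rays, and 2233 (GR6) and 2624 (GR50) after γ-rays. The X-ray libraries thus lay at the mock and GR50 was the highest. GR50 was the highest library for LHCA3 and LHCA4 too, and XR50 was also above the mock for LHCA4, with 2113 against 2057 CPM. For LHCA3 and LHCA4, the side of GR50 relative to the mock changed with the scaling, as did that of XR50 for LHCA4. LHCA9 (CHLRE_07g344950v5) had 4017, 2650, 3498, 3785 and 3528 CPM in the same libraries, with the low value in XR6 that most members had. The change from GR6 to GR50 was 0.23 for LHCA2, 0.11 for LHCA3, 0.02 for LHCA4 and -0.10 for LHCA9. Its sign turned under another scaling for LHCA3 and LHCA4, as did the side of GR50 relative to XR50 for LHCA4.

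LHCB4 and LHCB5 are the minor antenna proteins, which bridge the PSII core and the major antenna trimers. LHCB4 (CHLRE_17g720250v5, chromosome 17, 2974986 to 2976914) had 3989 CPM in the mock, 2280 (XR6) and 2755 (XR50) after X-rays, and 3645 (GR6) and 3284 (GR50) after γ-rays. In LHCB5 (CHLRE_16g673650v5, chromosome 16, 6411057 to 6413437), the levels were 2675, 2028, 2366, 2558 and 2632 CPM. Both genes were lower in the X-ray than in the γ-ray libraries, with log2 changes from XR6 to GR6 of 0.68 and 0.34 and from XR50 to GR50 of 0.25 and 0.15.

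Among the PSI subunits, PSAD (CHLRE_05g238332v5, chromosome 5, 2978242 to 2979235), which forms the docking site of ferredoxin together with PSAE, had the widest step between radiation types of all 31 genes. It had 2597 CPM in the mock, 1508 (XR6) and 1991 (XR50) after X-rays, and 2798 (GR6) and 2593 (GR50) after γ-rays. GR6 was above the mock, GR50 was level with it (its side changed with the scaling) and both X-ray libraries were below it, and the change from XR6 to GR6 was 0.89 (0.87 to 0.91). For PSAE (CHLRE_10g420350v5), the levels were 2581, 1519, 2142, 2157 and 1838 CPM. GR50 was lower than XR50 by 0.22 on the log2 scale in PSAE and higher by 0.38 in PSAD. The difference between these partners was not tested.

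PSAF (CHLRE_09g412100v5, chromosome 9, 7163422 to 7165425), which binds plastocyanin on the lumenal side, was the PSI gene whose widest step among the irradiated libraries was the smallest. Its level was 4349 CPM in the mock, 3040 (XR6) and 3760 (XR50) after X-rays, and 3993 (GR6) and 3831 (GR50) after γ-rays, and this widest step was the change from XR6 to GR6 of 0.39. PSAG and PSAK, which flank the core, had 1845 and 1811 CPM in XR6 against 3012 and 3127 in the mock. PSAN on the lumenal side and PSAO and PSAH on the side where the PSII antenna docks in state transitions had log2 changes from XR6 to XR50 between 0.39 and 0.43. PSAL (CHLRE_12g486300v5, chromosome 12, 1620271 to 1622341), which lies on the same side as PSAH and PSAO, differed from them and is also named after its values were seen. It had 1049 CPM in the mock, 896 (XR6) and 913 (XR50) after X-rays, and 1108 (GR6) and 1238 (GR50) after γ-rays. Here the X-ray libraries were close to each other, and both γ-ray libraries were above the mock.

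The PSII genes of this list encode the proteins that stabilize the manganese cluster of water oxidation, together with PSBR1. PSBO1 (CHLRE_09g396213v5, chromosome 9, 4556780 to 4559169), which encodes the protein most needed for this stability, had 5156 CPM in the mock, 2892 (XR6) and 3773 (XR50) after X-rays, and 4974 (GR6) and 4233 (GR50) after γ-rays. The change from XR6 to GR6 was 0.78 (0.77 to 0.80). PSBP1 (CHLRE_12g550850v5) had 3819 CPM in the mock, 2567 (XR6) and 2910 (XR50) after X-rays, and 4122 (GR6) and 4063 (GR50) after γ-rays, so that X-ray and γ-ray libraries lay on different sides of the mock, although the side of GR50 changed under another scaling. PSBR1 (CHLRE_06g261000v5, chromosome 6, 1651220 to 1652875) was the gene of this group whose widest step, 0.40 from XR6 to GR6, was the smallest, with 4447 CPM in the mock, 2973 (XR6) and 3711 (XR50) after X-rays, and 3922 (GR6) and 3927 (GR50) after γ-rays.

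PSBQ1 (CHLRE_08g372450v5, chromosome 8, 2553650 to 2556775), singled out after its values were seen, had 1628 CPM in the mock, 1468 (XR6) and 1338 (XR50) after X-rays, and 1704 (GR6) and 1899 (GR50) after γ-rays. It was lower in XR50 than in XR6 by a log2 change of -0.13 and higher in GR50 than in GR6 by 0.16. The other extrinsic proteins PSBO1 and PSBP1 had the opposite order, with 0.38 and 0.18 for X-rays and -0.23 and -0.02 for γ-rays.

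The ATP synthase genes had the lowest median of the 6 groups in the step from XR6 to XR50 and in that from XR6 to GR6, 0.16 in each. ATPC (CHLRE_06g259900v5, chromosome 6, 1525413 to 1528648), the γ subunit that turns with the rotor, had 2357 CPM in the mock, 1621 (XR6) and 1929 (XR50) after X-rays, and 2052 (GR6) and 2056 (GR50) after γ-rays. The levels of ATPD (CHLRE_11g467569v5, chromosome 11, 337493 to 339583), the δ subunit, were 1543, 1100, 1226, 1226 and 1207 CPM. ATPG had 1387 CPM in the mock and between 1142 and 1273 in the irradiated libraries. In each of these genes, the mock was the highest library. The log2 change from GR6 to GR50 was 0.00 for ATPC, -0.02 for ATPD and 0.07 for ATPG.

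Of the electron carriers, PCY1 (CHLRE_03g182551v5, chromosome 3, 5197561 to 5198678), which encodes plastocyanin, had the highest count of all members. Its level was 7793 CPM in the mock, 4291 (XR6) and 6397 (XR50) after X-rays, and 7748 (GR6) and 6470 (GR50) after γ-rays. The change from XR6 to XR50 was 0.58 and that from GR6 to GR50 was -0.26, each the largest of the 31 genes in its direction, and both 50 Gy libraries lay between the 6 Gy libraries. PETC (CHLRE_11g467689v5, chromosome 11, 1181185 to 1184519), the Rieske iron-sulfur protein of the cytochrome b6f complex, had 3082 CPM in the mock, 2128 (XR6) and 2814 (XR50) after X-rays, and 2539 (GR6) and 2204 (GR50) after γ-rays. FDX1, the main ferredoxin, had 6281, 4452, 6257, 5766 and 5059 CPM, and XR50 was within its counting error of the mock. PETC and FDX1 were lower in GR50 than in XR50, by -0.35 and -0.31. FNR1, the reductase that passes electrons from ferredoxin to NADP+, had 1578 CPM in the mock, 1023 (XR6) and 1113 (XR50) after X-rays, and 1410 (GR6) and 1396 (GR50) after γ-rays, and so kept apart by radiation type at both doses, with changes of 0.46 and 0.33.

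**Figure D2:**
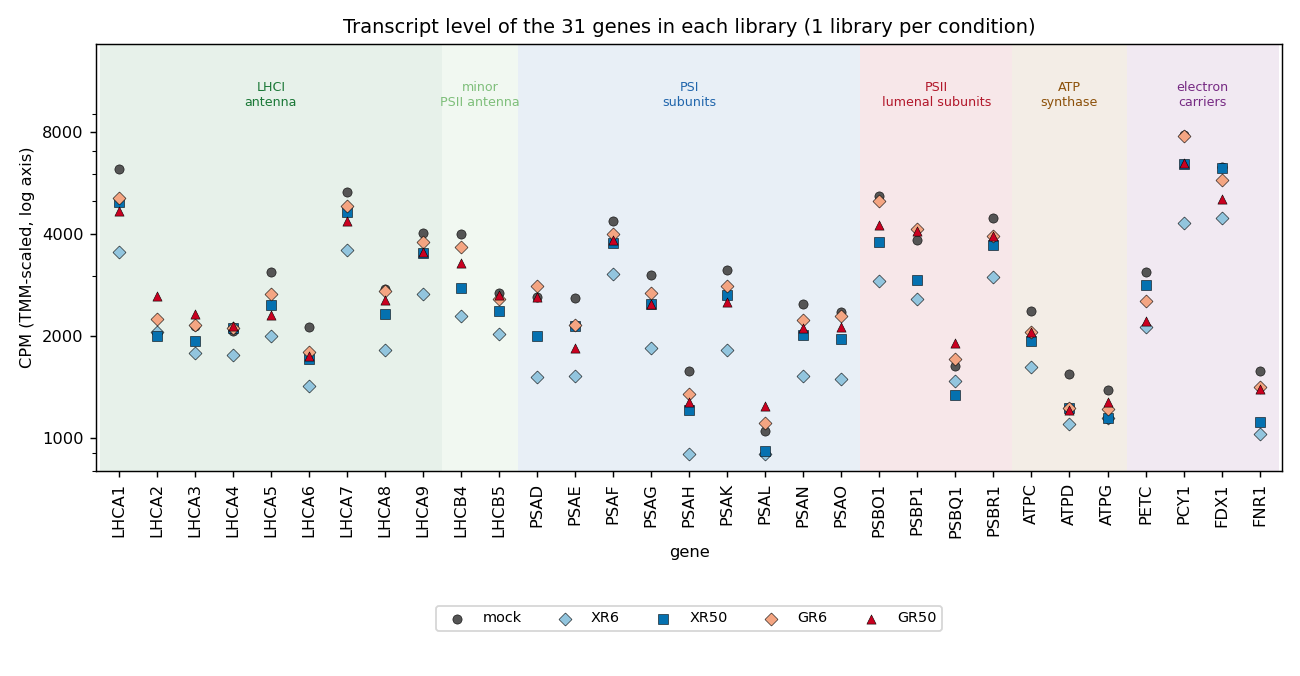
TMM-scaled CPM (y axis, log scale) of the 31 genes (x axis, shaded by complex) in the mock, XR6, XR50, GR6 and GR50, with 1 point per library and no error bars because each condition has 1 library. XR6 was the lowest point for 28 of the 31 genes, and for 24 where library totals replaced the TMM factors.

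XR6 was the lowest of the 5 libraries for 28 of the 31 genes, whereas this held for 20.9% of all genes and 33.4% of those with at least 1000 counts. The number was 24 with library totals, 29 with the size factors of DESeq2 and 26 with upper-quartile factors. The members lie well above the cut of 1000, with mean counts of 20177 or more, and the part of level in this contrast was not tested. XR50 was the lowest for the other 3 genes, LHCA2, PSBQ1 and ATPG, against 17.1% of all genes. The mock, GR6 and GR50 were the lowest for 0 members, against 20.0%, 16.6% and 25.3% of all genes. With library totals, the mock was the lowest for 1 member, GR50 for 1 and XR50 for 5. With upper-quartile factors, GR50 was the lowest for 2 and XR50 for 3, and with the size factors of DESeq2, XR50 for 2.

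To see whether the complexes shifted with dose, each 50 Gy library was compared with the 6 Gy library of the same radiation type. From XR6 to XR50, 27 of the 31 genes were higher and 2 were lower beyond the counting error, against 21.1% and 21.5% of all genes and 50.5% and 31.3% of the genes with at least 1000 counts. The median log2 change was 0.32 for the members, -0.01 for all genes and 0.09 for those with at least 1000 counts. By complex, the median was 0.45 for the carriers, 0.40 for the PSI subunits, 0.31 for the LHCA genes, 0.25 for both LHCB and PSII genes and 0.16 for the ATP synthase. From GR6 to GR50, 7 of the 31 genes were higher and 20 were lower beyond the counting error, against 25.3% and 22.5% of all genes and 38.9% and 41.9% of those with at least 1000 counts. The median was -0.08 for the members, -0.01 for all genes and -0.02 for those with at least 1000 counts. It was -0.20 for the carriers, -0.10 for the PSI subunits, -0.08 for the LHCA genes, -0.05 for the LHCB genes, -0.01 for the PSII genes and 0.00 for the ATP synthase. The median was above 0 after X-rays and below 0 after γ-rays under every scaling tried, and 25 and 22 genes kept that side throughout. More than 2-fold differences were found in 0 of the 31 genes for either radiation type. Of all genes, 4.72% were above and 4.66% below for X-rays, and 9.87% and 5.60% for γ-rays. Among the genes with at least 1000 counts, these shares were 1.09% and 0.350% for X-rays and 6.12% and 0.394% for γ-rays.

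To see whether they shifted with radiation type, the γ-ray library was compared with the X-ray library at each dose. At 6 Gy, GR6 was above XR6 by more than counting error in all 31 genes and below it in 0, against 26.7% and 26.5% of all genes and, above, 53.3% of those with at least 1000 counts, and ATPG alone changed its side under another scaling. The median log2 change was 0.43 for the members, -0.01 for all genes and 0.13 for those with at least 1000 counts. By complex, it was 0.55 for the PSI subunits, 0.54 for the PSII genes and 0.51 for the LHCB genes. It was 0.42 for the carriers and the LHCA genes and 0.16 for the ATP synthase. At the higher dose, GR50 was above XR50 in 20 genes and below it in 7. The shares were 29.6% and 25.5% of all genes and 45.8% and 42.4% of those with at least 1000 counts. The median was 0.08 for the members, 0.02 for all genes and 0.02 for those with at least 1000 counts. With upper-quartile factors the median of the members at 50 Gy was -0.07, and 12 of the 31 genes changed their side under at least 1 scaling, so that no common direction is given at this dose. By complex, the median was 0.32 for the PSII genes, 0.20 for the LHCB genes, 0.09 for the ATP synthase, 0.07 for the PSI subunits, 0.01 for the LHCA genes and -0.15 for the carriers. More than 2-fold differences were found in 0 of the 31 genes at either dose. Of all genes, 9.05% were above and 9.30% below at 6 Gy, and 12.6% and 9.04% at 50 Gy. Among the genes with at least 1000 counts, these shares were 6.86% and 5.51% at 6 Gy and 10.8% and 5.77% at 50 Gy.

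**Figure D3:**
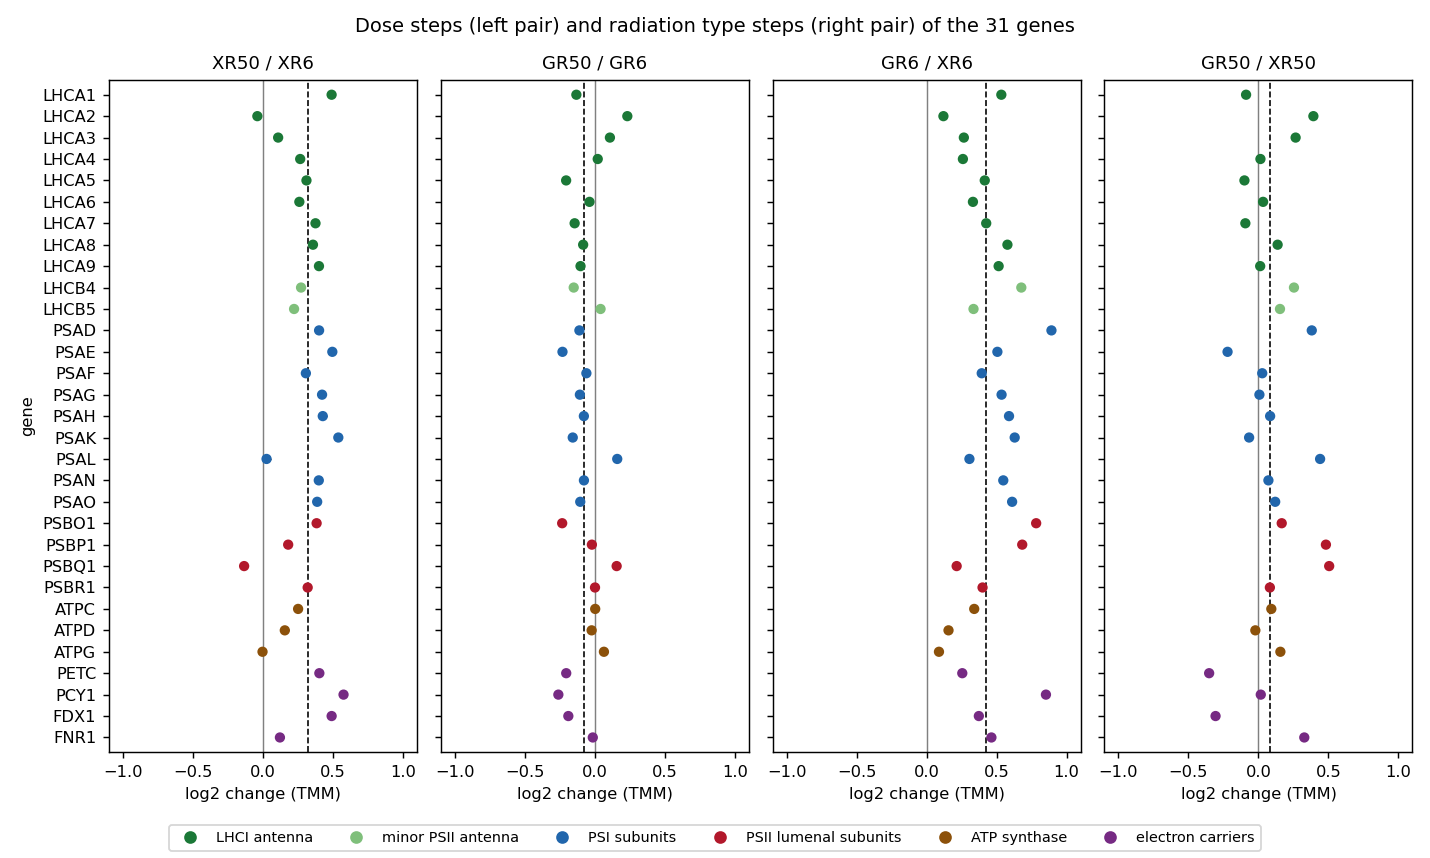
Log2 change (x axis) of each of the 31 genes (y axis, coloured by complex) from 6 to 50 Gy after X-rays and γ-rays, and from X-rays to γ-rays at 6 and 50 Gy. Dashed lines are the medians of 0.32, -0.08, 0.43 and 0.08 (the last was -0.07 with upper-quartile factors), and the 95% counting intervals, at most 0.03 to each side, are hidden by the points.

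The interquartile range of their log2 changes was 0.20 from XR6 to XR50, 0.15 from GR6 to GR50, 0.26 from XR6 to GR6 and 0.22 from XR50 to GR50. For the genes with at least 1000 counts, it was 0.44, 0.45, 0.77 and 0.77, so that the members were less spread in each comparison. In 22 of the 31 genes, both γ-ray libraries lay above both X-ray libraries, against 25.0% of all genes and 34.1% of those with at least 1000 counts. The number was 22 with library totals, 21 with the size factors of DESeq2 and 11 with upper-quartile factors, and the reverse order was found in 0 genes, against 25.2% of all genes. Both 50 Gy libraries lay above both 6 Gy libraries in 1 gene, LHCA4, and in 0 with library totals or upper-quartile factors, against 11.1% of all genes, and below them in 0 genes, against 11.2%.

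The dose steps after X- and γ-rays share no library, and members that were higher in XR50 than in XR6 tended to be lower in GR50 than in GR6. Over the 31 genes, which are not independent replicates and share the same 4 libraries, the Pearson correlation of both steps was -0.87 and Spearman's rho was -0.83. For all 15141 genes with counts in every library, the Pearson correlation was 0.04. Beyond the counting error, 20 members were higher after X-rays and lower after γ-rays at 50 Gy than at 6 Gy, against 7.41% of all genes and 25.2% of those with at least 1000 counts. The reverse was found in 2 members, LHCA2 and PSBQ1, against 7.73% of all genes. The number of genes with opposite steps, 22 in all, was between 22 and 29 under the other scalings. PCY1, FDX1, PSAE, PSAK and LHCA1 lay at one end of this order and LHCA2, PSBQ1 and PSAL at the other, with the ATP synthase genes near 0 in the γ-ray step. The order went along with the level of the genes, since the Pearson correlation with the log2 mean count over the 31 genes was 0.59 for the step after X-rays and -0.56 for that after γ-rays. The part of this in the result was not tested. The X-ray step rests on XR6, the library that stood apart, and XR6 and XR50 also differed in exposure time.

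**Figure D4:**
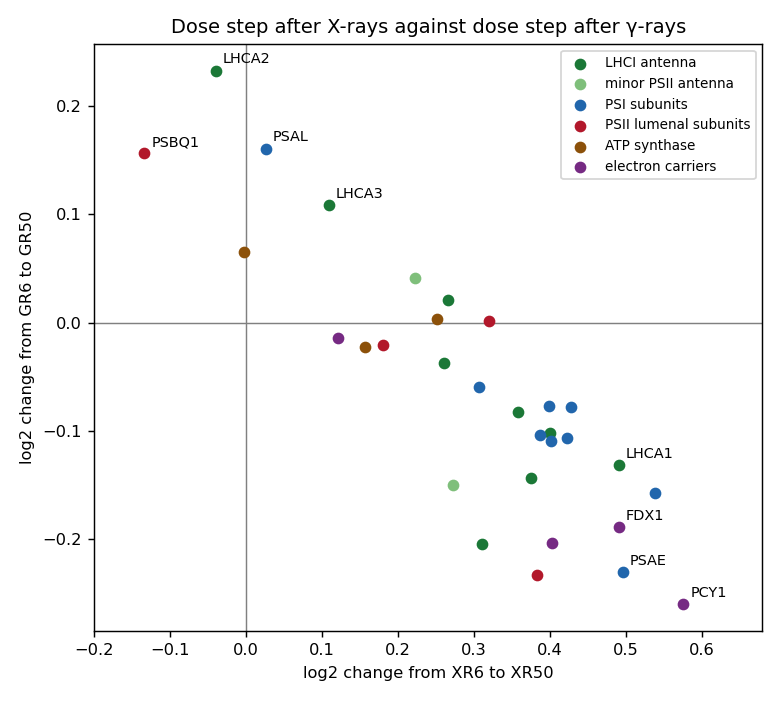
Log2 change from GR6 to GR50 (y axis) against that from XR6 to XR50 (x axis), with 1 point per gene, coloured by complex. The points run from LHCA2 (-0.04 and 0.23) and PSBQ1 (-0.13 and 0.16) at the upper left to PCY1 (0.58 and -0.26) at the lower right, with a Pearson correlation of -0.87 over 31 genes.

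The difference between the dose steps, γ-rays minus X-rays, had a median of -0.44 over the members and 0.03 over all genes. Over the genes with at least 1000 counts, the median of this difference was -0.08. It was lower than 0 beyond the counting error in 26 of the 31 genes and higher in 4, against 23.1% and 27.1% of all genes and 47.9% and 36.9% of those with at least 1000 counts, and ranged from -0.84 for PCY1 to 0.29 for PSBQ1. The median was -0.64 for the carriers, -0.51 for the PSI subunits, -0.44 for the LHCA genes, -0.30 for the LHCB genes, -0.26 for the PSII genes and -0.18 for the ATP synthase.

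Dose and radiation type were then tested in an additive fit over the 4 irradiated libraries, which has 1 residual degree of freedom. Its error was shared between genes and takes in the difference between the dose steps. The standard errors below are therefore not each member's own spread. A dose effect was found in 0 of the 31 genes by the quasi-likelihood F-test of edgeR (Benjamini-Hochberg over 14112 genes, threshold 0.05), against 1.84% of all genes higher and 0.0354% lower at 50 Gy, 1.88% in all. Before adjustment 0 members were under 0.05 too, against 5.42% of all genes higher and 1.09% lower, 6.51% in all, and the Wald test of DESeq2 gave 0 as well. The fitted dose effect was between 0.01 and 0.19, with a median of 0.13 and standard errors from 0.29 to 0.30. Without XR6, with dose fitted alone, the median was -0.10. That fit leaves GR6 as the only 6 Gy library and drops radiation type. It therefore cannot tell the part of XR6 in the sign apart from that of radiation type. For radiation type, edgeR called 0 of the 31 genes, against 6.14% of all genes higher and 3.87% lower after γ-rays, 10.0% in all, and DESeq2 called 0. Before adjustment, edgeR placed 2 members under 0.05, against 11.7% of all genes higher and 8.59% lower, 20.3% in all. These were PSAD, with a log2 effect of 0.64 (standard error 0.29, Benjamini-Hochberg adjusted p = 0.174 in edgeR), and PSBP1, with 0.58 (standard error 0.29, adjusted p = 0.230 in edgeR). The type effect was positive, meaning higher after γ-rays, in 30 genes and slightly negative in PETC (-0.05). Its median was 0.26 for the members, 0.01 for all genes and 0.08 for those with at least 1000 counts. The median over the members was 0.14 with upper-quartile factors and 0.11 without XR6, with type fitted alone. By complex, it was 0.42 for the PSII genes, 0.36 for the LHCB genes, 0.31 for the PSI subunits, 0.22 for the LHCA genes, 0.21 for the carriers and 0.12 for the ATP synthase. A p above the threshold does not show that a gene was level between doses or types, and standard errors of this size are larger than most of the fitted effects of the members.

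Other genes of the pathway were taken from 2 further lists of ORFs, whose names are not in the reference annotation. On the list drawn up for the 9 genes of the major PSII antenna, the LHCBM family, 0 passed for dose and 0 for type. The median log2 change of these 9 ORFs relative to the mock was -0.46 (XR6), -0.28 (XR50), -0.06 (GR6) and -0.17 (GR50), and it was 0.13 from XR6 to XR50, -0.11 from GR6 to GR50, 0.36 from XR6 to GR6 and 0.13 from XR50 to GR50. A list of 10 other ORFs around the thylakoid membrane had 0 genes with a dose effect, 1 higher and 1 lower after γ-rays. For comparison, edgeR called 10.0% of all genes for type, and 388 of the 2287 genes with at least 1000 counts. Whether the list differs from this background was not tested. The called ORFs of the list are named after their values were seen. CHLRE_05g242400v5 had 595 CPM in the mock, 335 (XR6) and 368 (XR50) after X-rays, and 815 (GR6) and 646 (GR50) after γ-rays, with a type effect of 1.05 (standard error 0.29, Benjamini-Hochberg adjusted p = 0.00648 in edgeR). CHLRE_17g700950v5 had 2404 CPM in the mock, 2042 (XR6) and 1946 (XR50) after X-rays, and 1360 (GR6) and 905 (GR50) after γ-rays, with a type effect of -0.84 (standard error 0.29, adjusted p = 0.0395 in edgeR).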

How the data were processed

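The 5 libraries, 1 per condition, were made with a stranded total RNA kit. The deposited values are raw counts per gene, which the authors made with FastQC 0.11.5, Trimmomatic 0.36, HISAT2 2.2.1 and HTSeq 0.11.3, per the submitters' processing notes. The strand setting is not given in the sources used here. The 5 counters of unassigned reads, 44.1% to 50.7% of a library, were left out of library sizes. Groups were taken from the labels.

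Levels were CPM with TMM factors from edgeR 4.0.16 (R 4.3.3). Pairs of libraries were compared as log2 ratios with exact Clopper-Pearson 95% intervals (scipy 1.17.1, numpy 2.4.6, pandas 2.3.3, Python 3.11.15), which cover counting error only, and without a test. Dose and radiation type were tested by edgeR's quasi-likelihood test in an additive fit of the 4 irradiated libraries, with Benjamini-Hochberg adjustment over 14112 genes. The fit was checked on simulated data with dose changes of at least 2-fold and no difference between the dose steps. That check therefore does not cover smaller changes or a difference between the dose steps. An exact permutation test of 2 against 2 libraries cannot go below p = 0.333. P-values measure only the spread between these libraries. The fit took its error from all genes together and not from each gene alone, with the difference between the dose steps serving as error. DESeq2 1.42.0, other scalings, filters, a prior count of 1 and thinned counts were alternatives. Full values were given for the members of each complex with the largest and the smallest step among irradiated libraries. The members and lists were chosen with earlier results of these data known. No sequences were used here.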

Additional observations from a re-analysis of the deposited data

Results flagged for a closer look

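In 22 of the 31 genes, the change from 6 to 50 Gy went one way after X-rays and the other way after γ-rays, beyond the counting error of both. In 20 of them the higher dose was higher after X-rays and lower after γ-rays, against 7.41% of all genes and 25.2% of those with at least 1000 counts, and in 2 the reverse, against 7.73% and 16.4%. Each radiation type has 1 library per dose, so that this difference was not tested. The log2 difference, γ-rays minus X-rays, among the LHCA genes was -0.62 for LHCA1, 0.27 for LHCA2, -0.52 for LHCA5, -0.30 for LHCA6, -0.52 for LHCA7, -0.44 for LHCA8 and -0.50 for LHCA9. LHCA2 was thus the one LHCA gene that was lower after X-rays and higher after γ-rays at the higher dose. LHCB4 had a difference of -0.42. Among the PSI subunits it was -0.51 for PSAD, -0.73 for PSAE, -0.37 for PSAF, -0.53 for PSAG, -0.51 for PSAH, -0.70 for PSAK, -0.48 for PSAN and -0.49 for PSAO. The PSII proteins of water oxidation did not go together, with -0.62 for PSBO1, -0.20 for PSBP1 and 0.29 for PSBQ1. The carriers had -0.61 for PETC, -0.84 for PCY1 and -0.68 for FDX1. None of the 3 ATP synthase genes was in this set.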

How the results depend on the processing

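In all alternatives, 0 of the 31 genes passed 2-fold in any comparison and 0 passed the test for dose or type. The medians over the members moved with the scaling. With library totals they were -0.38 (XR6), -0.22 (XR50), -0.024 (GR6) and -0.12 (GR50) relative to the mock, 0.18 from XR6 to XR50, -0.11 from GR6 to GR50 and 0.33 from XR6 to GR6. With upper-quartile factors they were -0.64 (XR6), -0.34 (XR50), -0.21 (GR6) and -0.41 (GR50) relative to the mock, -0.21 from GR6 to GR50 and -0.069 from XR50 to GR50, where the sign turned. With the size factors of DESeq2 they were -0.26 in XR50 and -0.11 in GR6. With TMM factors computed without XR6, chosen after seeing the data, they were -0.26 in XR50, -0.11 in GR6, -0.10 from GR6 to GR50 and 0.054 from XR50 to GR50. These shifts follow from the factors, which move all genes alike. Of all reads listed, unassigned ones included, the 31 genes took 4.65% in the mock, 3.94% (XR6) and 4.15% (XR50) after X-rays, and 4.57% (GR6) and 4.42% (GR50) after γ-rays. By complex, XR6 stayed the lowest library for the LHCA genes, the PSI subunits and the carriers only. XR6 lay above XR50 for the PSII genes (0.600% and 0.591%), the LHCB genes (0.261% and 0.258%) and the ATP synthase genes (0.234% and 0.217%). The number of genes called for dose was 265 in the additive fit, 77 with library totals, 97 with DESeq2 and 0 with dose fitted alone. For type it was 1412, 965 with library totals, 809 with DESeq2 and 531 with type fitted alone. Without XR6, with each factor fitted alone, 0 genes passed for either and the median type effect of the members was 0.11, which was also chosen after seeing the data, as were the scalings of the opposite dose steps. No paired analysis was possible because each group holds 1 library, so that no replicate numbers pair the samples. The additive fit itself compares the doses within a radiation type and the types within a dose.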
